A study of Vitis labrusca and Vitis cinerea and Vitis acerifolia with 56 samples.

Results

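Berries of Vitis cinerea that ripened inside light-proof boxes were followed in 5 of the 56 RNA-sequencing libraries of a grape series, chosen as every V. cinerea library whose cluster was still boxed at harvest. These were 2 libraries from mature berries boxed through all of development, 2 from pre-veraison berries boxed up to their harvest 2 weeks before veraison, and 1 from berries boxed up to veraison, the onset of ripening. Veraison replicate 1 in a box was not analysed here. Each box was wrapped in aluminium foil and measured 40 cm in length and 25 cm in width and height. The series holds 24 V. labrusca, 22 V. cinerea and 10 V. acerifolia libraries, and its design text places V. cinerea among the species whose anthocyanins form without sunlight and V. labrusca among those that need it. Boxed ripening was therefore set beside V. cinerea clusters kept in sunlight (2 mature libraries and 1 pre-veraison library) and beside boxed V. labrusca (2 mature and 2 pre-veraison libraries). All vines received standard fertilization, irrigation, pruning and pest control. The labels do not say whether replicates came from separate vines or clusters, so the spread between replicate libraries may be technical. The p-values measure that spread pooled within groups over all 46 V. labrusca and V. cinerea libraries, and not only in the libraries compared.

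Anthocyanins, the red to blue pigments of grape skin, are built from phenylalanine. The general phenylpropanoid enzymes (PAL, C4H, 4CL) feed the early flavonoid enzymes (CHS, CHI, F3H and the B-ring hydroxylases F3'H and F3'5'H), after which DFR, LDOX and UFGT form and glucosylate the pigment. MYBA1 and MYBA2, MYB factors of the berry colour locus, activate UFGT, and GST4 and the AM transporters help to move the pigment into the vacuole. In many grapes shade lowers this pathway, and HY5 and HYH are bZIP factors of light signalling that act upstream of flavonoid genes. The deposited table gives identifiers without names, and the names used here were recalled from the grape literature and not checked against an annotation.

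Expression was deposited as FPKM, fragments scaled by transcript length and library total. The 5 libraries summed to between 901719 and 1177405 FPKM and listed between 17906 and 18761 genes above 0. Read depth is unknown, so no counting interval is given, and an FPKM of 0 is reported as listed at 0. The most abundant gene took 2.53% and 3.82% of the total at pre-veraison, 9.06% at veraison and 9.54% and 7.99% at maturity. Genes private to 1 species before ripening put all 5 libraries with V. cinerea, at 84.6% to 100% of the V. cinerea set and at most 4.55% of either other set. Replicate 1 of the mature sunlight libraries of V. cinerea, in contrast, held 77.3% of the V. labrusca set and 7.69% of the V. cinerea set, and the comparison with sunlight is also given without the 9 libraries in which another species' set was the highest, this one among them. The 4 other mature V. cinerea libraries with light held 23.1% to 38.5% of the V. cinerea set, less than the mature boxed pair at 84.6% each, though no other set was higher in them. The sets were defined on libraries up to veraison, and how they change with ripening was not tested. They held 13 genes for V. cinerea, 22 for V. labrusca and 271 for V. acerifolia, so shares of the V. cinerea and V. labrusca sets rest on few genes. A library up to veraison was scored on sets redefined without it. The skin markers MYBA1 and MYBA2 were listed at 0 in both pre-veraison boxed libraries and UFGT was under 1 FPKM there, while GST4 was detected in every boxed library. Seed and flesh markers could not be listed without gene descriptions, and the part of tissue proportions in any result was not tested. In whole berries, fewer cells of a type and less RNA per cell cannot be told apart.

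Pigment appeared late in the box. The labels give an anthocyanin concentration per sample, with no unit, of 0 and 0 at pre-veraison, 0 at veraison, and 1.085 and 1.973 at maturity. Both mature boxed samples were thus above every earlier boxed sample. Their mean of 1.529 ± 0.628 (SD, n = 2) exceeded the pre-veraison mean of 0 with an exact two-sided permutation p = 0.333, the smallest that 2 against 2 samples can give. Mature berries labelled sunlight held 6.968 and 5.22, those uncovered earlier held 5.307 to 5.981, and boxed V. labrusca stayed at 0 and 0 at maturity.

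The anthocyanin branch rose, with DFR as the exception, between pre-veraison and maturity in the box. Of its 11 genes, all tested, 10 rose and 0 fell in limma (Benjamini-Hochberg adjusted p under 0.05), against 2.03% of all genes tested that rose. The median log2 difference of the list was 6.53, or 5.37 over the 8 genes above 0 in some library of both stages, against -0.09 over all 20333 genes. Here and below a log2 difference is a difference in mean log2(FPKM + 1).

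The regulators went from undetected to abundant. MYBA1 (VIT_02s0033g00410) was listed at 0 in both pre-veraison libraries, at 0.457 FPKM at veraison, and at 112 and 78.4 FPKM at maturity. MYBA2 (VIT_02s0033g00390) was listed at 0 and 0, then at 1.51 FPKM, then at 137 and 130 FPKM. MYBA3 (VIT_02s0033g00450), another MYB gene of the colour locus, was listed at 0 in all 3 earlier libraries and at 93.2 and 89.6 FPKM at maturity. In each of the 3 genes the mature libraries stood far above the others with no overlap. The limma adjusted p was 6.11e-07 for MYBA1, 8.22e-07 for MYBA2 and 0.000435 for MYBA3. No fold is given against libraries listed at 0. These genes are close copies of each other, so how reads were assigned among them is uncertain.

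The enzymes that complete the pigment followed the same course. UFGT (VIT_16s0039g02230), the glucosyltransferase that stabilises the pigment, stood at 0.463 and 0.347 FPKM at pre-veraison, 6.79 at veraison and 1149 and 1119 at maturity. The veraison library stood above the pre-veraison pair and far below the mature pair, and the whole change was a log2 difference of 9.66 ± 1.09 (SE; limma adjusted p = 6.58e-06). LDOX (VIT_02s0025g04720), which makes anthocyanidins, stood at 83.1 and 38.0 FPKM, then 47.4, then 2197 and 1888. It was well expressed before ripening and rose by 5.15 ± 0.71 (SE; limma adjusted p = 7.63e-05). DFR (VIT_18s0001g12800), the step before LDOX, differed from the rest of the branch: it read 83.7 and 57.4 FPKM, then 69.4, then 140 and 160. Its mature libraries were the 2 highest, but the difference of 1.10 ± 0.55 (SE) did not pass (limma adjusted p = 0.284). It passed when the 5 boxed libraries were fitted alone (adjusted p = 0.0466).

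Genes that decorate and transport the pigment also rose. AOMT (VIT_01s0010g03510), a methyltransferase, read 0.438 and 2.81 FPKM at pre-veraison, 1.96 at veraison and 77.5 and 104 at maturity, and rose by 5.28 (limma adjusted p = 0.00141). The acyltransferase gene 3AT (VIT_03s0017g00870) read 0.325 and 0.587 FPKM, then 0.820, then 68.8 and 56.9, and rose by 5.46 (limma adjusted p = 0.00069). In both genes the veraison library lay within or just above the pre-veraison pair. GST4 (VIT_04s0079g00690), a glutathione transferase needed for delivery to the vacuole, read 3.62 and 1.29 FPKM, then 16.8, then 2220 and 2824, a log2 difference of 9.59 ± 1.06 (SE; limma adjusted p = 5.58e-06). AM3 (VIT_16s0050g00910), a vacuolar transporter of acylated anthocyanins, read 4.70 and 4.42 FPKM, then 9.60, then 583 and 560, a log2 difference of 6.69 ± 0.54 (SE; limma adjusted p = 9.66e-08). Its tandem neighbour AM1 (VIT_16s0050g00930) was already at 72.5 and 52.4 FPKM, stood at 81.0 at veraison, and reached 227 and 279 at maturity, a log2 difference of 2.01 (limma adjusted p = 0.0307). The call for AM1 was lost without any 1 of the 4 libraries compared.

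**Figure D1:**
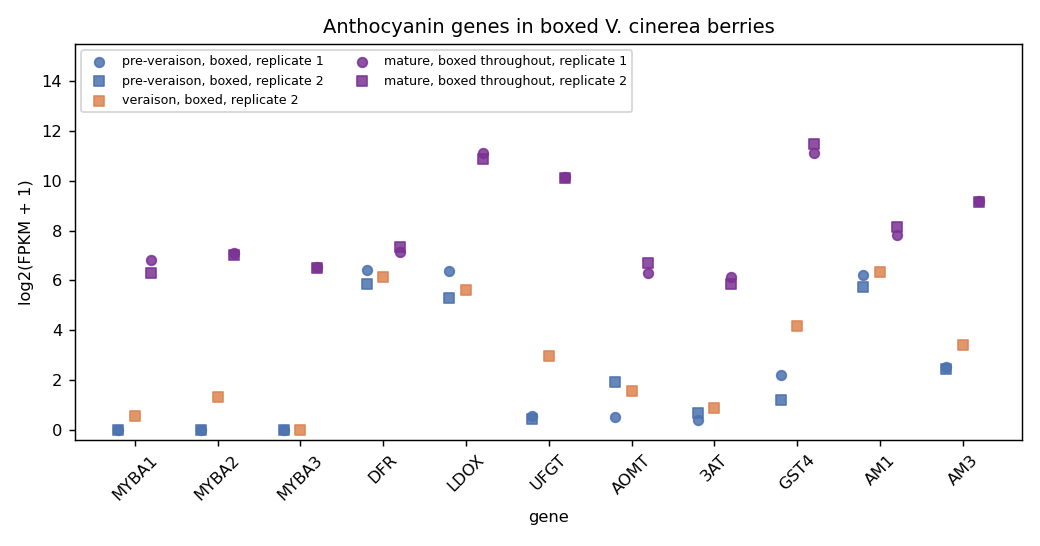
Levels of the 11 anthocyanin genes, as log2(FPKM + 1), in each of the 5 boxed V. cinerea libraries; each point is 1 library, coloured by stage and shaped by replicate. The veraison point lies near the pre-veraison points for most genes, and both mature points lie above them for every gene, by the least for DFR.

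The upstream enzymes rose in part. Of the 35 early flavonoid genes 22 passed the filter on low values, and of these 10 rose and 0 fell, against 2.03% of all genes tested that rose. CHS3 (VIT_05s0136g00260), a chalcone synthase, read 366 and 530 FPKM at pre-veraison, 422 at veraison and 7490 and 7664 at maturity, and rose by 4.10 ± 0.82 (SE; limma adjusted p = 0.00351). CHI1 (VIT_13s0067g03820), a chalcone isomerase, read 56.8 and 26.3 FPKM, then 35.4, then 856 and 856, and rose by 4.43 (limma adjusted p = 5.66e-05). CHI2 (VIT_13s0067g02870) read 227 and 194 FPKM, then 192, then 743 and 740, and rose by 1.82 (limma adjusted p = 0.00588). The F3'5'H gene VIT_06s0009g03010, a member of a tandem family whose enzymes lead to blue pigments, was listed at 0 in the 3 earlier libraries and at 13.9 and 11.2 FPKM at maturity (limma adjusted p = 0.00712). In these 4 genes the 3 earlier libraries lay together and the mature pair lay apart. CHI2 lost its call without either mature library or without pre-veraison replicate 2, and VIT_06s0009g03010 lost it without any 1 of the 4 libraries. Of the whole list 2 genes rose without mature replicate 1, 2 without mature replicate 2 and 3 without pre-veraison replicate 2.

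Of 8 general phenylpropanoid genes, 4 rose and 0 fell, against 2.03% of all genes tested that rose and 3.34% that fell. The phenylalanine ammonia-lyase gene PAL (VIT_13s0019g04460), at the entry to the pathway, read 6.78 and 4.41 FPKM at pre-veraison, 5.61 at veraison and 483 and 347 at maturity, and rose by 5.98 ± 0.59 (SE; limma adjusted p = 9.03e-07). A second PAL gene (VIT_06s0004g02620) read 23.2 and 12.3 FPKM, then 10.6, then 284 and 184, and rose by 3.68 (limma adjusted p = 0.00659). C4H (VIT_06s0004g08150), the cinnamate hydroxylase, read 106 and 78.3 FPKM, then 52.8, then 565 and 568, and rose by 2.63 (limma adjusted p = 0.00598). The coumarate ligase gene 4CL (VIT_16s0050g00390) read 19.1 and 10.6 FPKM, then 19.6, then 105 and 116, and rose by 2.87 (limma adjusted p = 0.000622). None of the 4 had a veraison value near its mature values. Without mature replicate 1 or pre-veraison replicate 2 both VIT_06s0004g02620 and C4H lost their calls, and C4H also lost it without mature replicate 2.

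No gene of the proanthocyanidin or flavonol lists passed as higher. In the proanthocyanidin branch, which makes the tannin precursors of young berries, limma called 0 of 5 genes. Before adjustment 3 had a p under 0.05, against 3740 of all 20333 genes tested. ANR (VIT_00s0361g00040), which makes flavan-3-ols, read 64.7 and 19.5 FPKM at pre-veraison, 18.4 at veraison and 5.22 and 3.05 at maturity (log2 difference -2.87, limma adjusted p = 0.0762, or 0.0442 with boxed libraries alone). LAR2 (VIT_17s0000g04150), another enzyme of that step, read 50.1 and 51.1 FPKM, then 61.9, then 19.2 and 17.1 (limma adjusted p = 0.266, or 0.0161 with boxed libraries alone). MYBPA1 (VIT_15s0046g00170), an activator of these genes, read 66.1 and 202 FPKM, then 63.5, then 21.9 and 27.7 (limma adjusted p = 0.243). In all 3 the mature pair was the lowest of the 5 libraries. The fourth named gene, LAR1 (VIT_01s0011g02960), did not exceed 2.87 FPKM in any of them.

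Of 3 flavonol genes 0 rose and 1 fell, against 3.34% of all genes tested that fell. MYBF1 (VIT_07s0005g01210), the MYB activator of flavonol synthase, read 6.57 and 12.4 FPKM at pre-veraison, 10.8 at veraison and 0.134 and 0.201 at maturity, and fell by 3.11 on the log2 scale (limma adjusted p = 0.0342). That call was lost with a pseudocount of 0.1 and without any 1 of the 4 libraries. The flavonol synthase FLS1 (VIT_18s0001g03470) was listed at 0 in the 3 earlier libraries and at 1.69 and 1.34 FPKM at maturity, and its relative FLS5 (VIT_18s0001g03430) read 12.2 and 18.6 FPKM, then 21.4, then 10.2 and 7.73. Neither passed in limma (adjusted p = 0.776 and 0.713).

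In the fit of all libraries neither the light-signalling genes nor the co-regulators passed. HY5 (VIT_04s0008g05210) read 25.4 and 46.9 FPKM at pre-veraison, 52.6 at veraison and 19.6 and 31.9 at maturity, with overlap between the stages (limma adjusted p = 0.924). HYH (VIT_05s0020g01090) did not exceed 1.03 FPKM in the box. Of 6 co-regulators limma called 0, and 2 had a p under 0.05 before adjustment, against 3740 of all 20333 genes tested. MYB5a (VIT_08s0007g07230), a MYB factor of general flavonoid steps, read 25.4 and 35.7 FPKM, then 19.0, then 8.12 and 6.14 (log2 difference -1.95, limma adjusted p = 0.0581). It passed with boxed libraries alone (adjusted p = 0.0199) and in 2 other alternatives. The bHLH gene MYCA1 (VIT_15s0046g02560) stood at 9.19 and 18.4 FPKM against 4.08 and 4.50 at maturity. The WD-repeat gene WDR1 (VIT_16s0098g00870) stood at 87.6 and 47.5 FPKM against 165 and 140, with its highest value, 194, at veraison. MYB5b (VIT_06s0004g00570) stood at 38.4 and 51.9 FPKM against 90.7 and 76.5. The limma adjusted p of these last 3 was 0.12, 0.272 and 0.283.

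Among genes of sugar handling, limma called 0 of 5, and 1 had a p under 0.05 before adjustment, against 3740 of all 20333 genes tested. GIN1 (VIT_16s0022g00670), a vacuolar invertase that is high in green berries, read 1144 and 1191 FPKM at pre-veraison, 2298 at veraison and 240 and 197 at maturity. Its mature values did not overlap the others, yet the log2 difference of -2.42 ± 1.30 (SE) did not pass (limma adjusted p = 0.338, or 0.00995 with boxed libraries alone). SWEET10 (VIT_17s0000g00830), a sugar exporter of ripening berries, read 22.1 and 50.0 FPKM, then 200, then 134 and 148, and had reached its highest boxed level by veraison (limma adjusted p = 0.0746 from pre-veraison to maturity, or 0.0376 with boxed libraries alone). The tonoplast hexose transporter HT6 (VIT_18s0122g00850) read 176 and 462 FPKM, then 636, then 566 and 556. The hexose transporter gene HT1 (VIT_00s0181g00010) stayed between 1.10 and 3.40 FPKM.

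The remaining lists gave no call in limma. NCED1 (VIT_19s0093g00550), of abscisic acid synthesis, read 2.34 and 0.847 FPKM at pre-veraison, 2.94 at veraison and 5.83 and 6.01 at maturity (adjusted p = 0.416). Of 5 NAC factors tied to ripening 0 passed, against 5.37% of all genes tested. Before adjustment 0 had a limma p under 0.05, against 3740 of all 20333 genes tested. NAC60 (VIT_08s0007g07670) stood at 3.90 and 4.75 FPKM, then 3.67, then 1.03 and 2.84. NAC26 (VIT_01s0026g02710) stood at 84.1 and 26.9 FPKM, then 58.5, then 38.6 and 24.4. NAC33 (VIT_19s0027g00230) stood at 3.08 and 1.24 FPKM against 7.02 and 4.79 at maturity. MYB15 (VIT_05s0049g01020), a MYB activator of stilbene synthases, stood at 4.16 and 4.50 FPKM, then 8.79, then 19.2 and 19.3 (limma adjusted p = 0.0774, or 0.0143 with boxed libraries alone). MYB14 (VIT_07s0005g03340), the other such activator, was listed at 0 in both mature libraries and did not exceed 4.21 FPKM before. The stilbene synthases themselves, which make resveratrol, were nearly silent: none of the 5 boxed libraries held any of the 49 genes above 3.80 FPKM. Of the 40 tested 0 passed and 0 had a limma p under 0.05 before adjustment, against the same 5.37% and 3740 of all genes tested.

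Over all genes tested, 412 rose and 679 fell from pre-veraison to maturity, 5.37% of 20333. Without any 1 of the 4 libraries the total was 299 to 485. Outside the lists, the largest rises and falls with a call belonged to the 4 identifiers that follow, which the file does not name. VIT_05s0049g00520 read 87.4 and 35.2 FPKM at pre-veraison, 1090 at veraison and 21010 and 19770 at maturity (limma adjusted p = 0.00133). VIT_02s0033g00380 was listed at 0 in the 3 earlier libraries and at 238 and 282 FPKM at maturity (limma adjusted p = 5.66e-05). Its number directly precedes that of MYBA2 (VIT_02s0033g00390), and whether it belongs to the colour locus or shares reads with the MYBA genes was not tested. VIT_00s0187g00080 fell from 195 and 349 FPKM, with 216 at veraison, to 5.92 and 3.72 FPKM (limma adjusted p = 0.000494). VIT_18s0001g08420 fell from 230 and 156 FPKM to 6.96e-06 and 6.87 FPKM (limma adjusted p = 0.0375), a call lost under 7 of 12 alternatives. In all, 27 genes were listed at 0 in both pre-veraison libraries and above 5 FPKM in both mature ones, and 25 showed the converse, but 143 genes were split in that way between the pre-veraison replicates alone and 133 between the mature replicates.

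More genes passed after veraison than before it. From pre-veraison to the single veraison library 16 genes rose and 7 fell, 0.113% of those tested, and from veraison to maturity 94 rose and 247 fell, 1.68%, with 1.21% of genes lower. Without mature replicate 1 or 2 the later total was 123 or 81. These comparisons share libraries. Dividing each library by a median-ratio factor, which moved the median gene of the later step from -0.17 to 0, turned its split into 105 higher and 126 lower. The 412 risers had a median log2 difference of 0.53 before veraison and 1.56 after it, and 318 of them (77.2%) had the larger step after it. The 679 fallers had medians of -0.21 and -1.59, with the larger step after veraison in 600 (88.4%). These are descriptions of genes chosen on the sum of both steps.

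In the listed pathways the later step carried the calls. Before veraison limma called 0 genes of any list, against 0.0787% of all genes tested that rose. Before adjustment 1 co-regulator and 1 sugar gene had a p under 0.05, against 685 of all 20333 genes tested. After it 9 of 11 anthocyanin genes rose, against 0.462% of all genes tested that rose, together with 5 of 22 early flavonoid genes and 4 of 8 phenylpropanoid genes. With V. cinerea libraries alone these counts were 4 of 11, 3 of 18 and 3 of 8, and MYBA3, UFGT, AOMT, 3AT, GST4, CHS3, CHI2 and 4CL lost their calls. Without mature replicate 1 they were 7, 1 and 1, and without mature replicate 2 they were 6, 1 and 1. AOMT, 3AT, CHS3, CHI2, 4CL, C4H and PAL VIT_06s0004g02620 lost their calls without either of the 2, and MYBA3 without replicate 2. AM3 rose by 5.76 (limma adjusted p = 3.95e-05), MYBA1 passed at an adjusted p = 6.73e-05, and PAL VIT_13s0019g04460 rose by 5.96 (adjusted p = 5.14e-05). UFGT and GST4 were the anthocyanin genes furthest above their pre-veraison levels at veraison, by 2.47 and 2.45 (limma adjusted p = 1 for both), and they then rose by 7.19 (adjusted p = 0.00503) and 7.14 (adjusted p = 0.00467). A test of the later step against the earlier one called 29 genes, 0.143% of those tested, with 0.0148% higher and 0.128% lower and none in any list. The total was 18 without pre-veraison replicate 1. In that limma test 7 of 11 anthocyanin genes had a p under 0.05 before adjustment, against 1153 of all 20333 genes tested. The smallest adjusted p named here was 0.081, for PAL VIT_13s0019g04460. With 1 veraison library the step tests assume that it varies like the other groups.

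**Figure D2:**
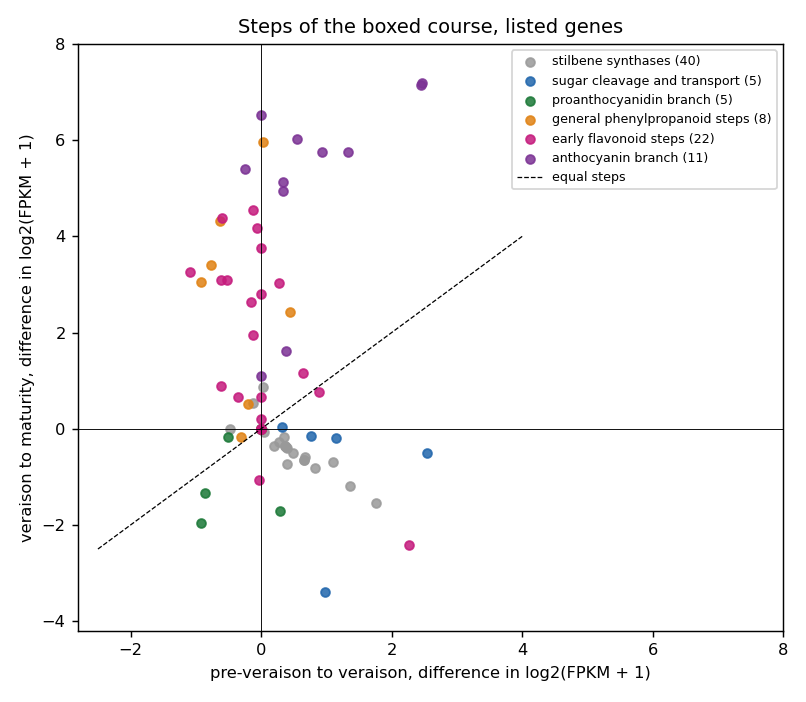
Each point is a listed gene that was tested, placed by its difference in log2(FPKM + 1) from pre-veraison to veraison (horizontal) and from veraison to maturity (vertical) in boxed V. cinerea; the dashed line marks equal steps. The anthocyanin genes lie high above the line, and UFGT and GST4 are the 2 at 2.47 and 2.45 on the horizontal axis.

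Mature boxed berries lay part of the way along the change to the mature libraries with light, as labelled. A position was computed for each library over 2868 genes outside the lists, 784 rising and 2084 falling, with the 3 pre-veraison libraries at 0 on average and 4 mature V. cinerea libraries with light at 1. The end at 0 includes both pre-veraison boxed libraries. The end at 1 holds mature sunlight replicate 2 and mature libraries uncovered earlier. The mature boxed libraries lay at 0.38 and 0.394 and the veraison boxed library at 0.095. The veraison sunlight libraries lay at 0.09 and 0.168, and those taken 2 weeks later in sunlight at 0.943 and 0.405, so the latter pair differed widely between replicates. The first of that pair held 38.5% of the species-private V. cinerea set and the second 84.6%. The mature boxed pair also held 84.6% each, and the 4 mature libraries with light that define 1 held 23.1% to 38.5%. The part of this in the positions was not tested. Rising and falling genes gave similar positions for the mature boxed pair, 0.373 and 0.399 against 0.383 and 0.393. The boxed V. labrusca libraries at maturity lay at 0.52 and 0.448 on that species' own axis of 2040 genes.

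Whole-transcriptome similarity gave the same nearest library. Over 20333 genes the mature boxed libraries correlated with each other at r = 0.968. Their next most similar V. cinerea library was the second sunlight replicate from 2 weeks after veraison, with r = 0.943 and 0.95. The second veraison replicate boxed until pre-veraison followed closely, with r = 0.94 and 0.941. Against the pre-veraison boxed libraries r was 0.89 to 0.902, and against mature libraries with light it was 0.829 to 0.875. These correlations are across genes, which are not independent replicates.

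**Figure D3:**
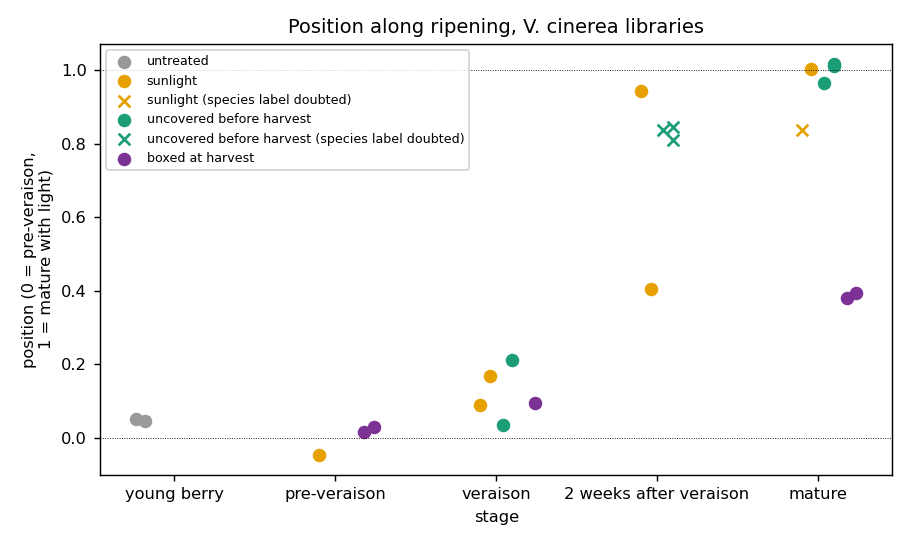
Position of each of the 22 V. cinerea libraries between pre-veraison (0) and maturity with light (1), by stage; each point is 1 library, coloured by light treatment, and crosses mark the 4 libraries whose species-private genes go against their label. The mature boxed pair lies at 0.38 and 0.394, near the lower of the 2 sunlight libraries from 2 weeks after veraison.

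The anthocyanin genes of the mature boxed berries were among the highest of the 22 libraries labelled V. cinerea. For 5 of 11 anthocyanin genes (MYBA2, MYBA3, LDOX, UFGT and AM3) both mature boxed libraries exceeded all 20 others, as they did for 1.16% of all genes tested. Among the 20 others UFGT reached at most 659 FPKM, in the second sunlight replicate from 2 weeks after veraison, against at least 1119 FPKM in the box. LDOX reached 1692 FPKM in that same library, against at least 1888 FPKM. In mature berries labelled V. cinerea and uncovered earlier UFGT read 33.0, 50.7 and 90.0 FPKM and LDOX 120, 196 and 520 FPKM. This ranking follows the labels. The mature V. acerifolia libraries boxed until pre-veraison, boxed until veraison and in sunlight held 76.9%, 84.6% and 100% of the V. cinerea set. In that order they read UFGT at 1342, 1150 and 661 FPKM and LDOX at 2282, 1617 and 1389 FPKM. Their species was not tested further, and they were not ranked. Both mature boxed libraries also exceeded all 20 others for CHS3, of the F3'5'H gene VIT_06s0009g02860, of PAL VIT_13s0019g04460 and of the invertase gene GIN2 (VIT_02s0154g00090), by 461 against 456 FPKM for the last. Both mature boxed libraries lay below all others for 0.703% of genes tested and for none of the listed ones.

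From pre-veraison to maturity some pigment genes rose more in the box than in the libraries labelled V. cinerea in sunlight. The difference between the boxed and the sunlight change passed for 646 genes in the higher and 101 in the lower direction, 3.67% of those tested. Scaling by median ratios moved the median gene of this contrast from 0.11 to 0 and gave 534 and 124. Without mature boxed replicate 1 or 2, pre-veraison boxed replicate 2 or mature sunlight replicate 1 the total was 293, 396, 333 and 385. Of 11 anthocyanin genes 4 passed, all higher in the box (2 to 4 when 1 library was left out), against 3.18% of all genes tested that were higher and 0.497% that were lower. Of the early flavonoid genes 1 of 22 passed, and of the 8 phenylpropanoid genes limma called 0. Before adjustment 4 of these 8 had a p under 0.05, against 3634 of all 20333 genes tested.

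MYBA1 read 9.40 FPKM in the pre-veraison sunlight library and 14.4 and 36.8 in the mature ones, while in the box it went from 0 to 112 and 78.4 FPKM. The 2 light regimes thus started apart and ended apart in the opposite order (difference of changes 5.35, limma adjusted p = 0.00372). LDOX read 270 FPKM at pre-veraison in sunlight and 629 and 224 at maturity, a sunlight change of 0.47 beside 5.15 in the box (difference 4.68, limma adjusted p = 0.0198). GST4 read 76.5 FPKM and then 869 and 625 in sunlight (difference 6.34, limma adjusted p = 0.034). AM3 read 41.3 FPKM and then 156 and 220 in sunlight (difference 4.55, limma adjusted p = 0.00453). In all 4 genes the boxed libraries were below the sunlight library at pre-veraison and above the sunlight libraries at maturity. In sunlight 2 weeks after veraison, a stage outside this contrast, all 4 stood above their mature sunlight values. MYBA1 read 68.4 and 98.2 FPKM there, LDOX 972 and 1692, GST4 1275 and 3446 and AM3 270 and 464. The mature sunlight library labelled V. acerifolia, also outside this contrast, held 100% of the V. cinerea set. It read MYBA1 at 67.7, LDOX at 1389, GST4 at 1387 and AM3 at 357.5 FPKM.

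CHI2 read 422 FPKM at pre-veraison in sunlight and 199.5 and 299.9 at maturity (difference 2.60, limma adjusted p = 0.0174). UFGT, at 3.24 FPKM and then 66.6 and 67.2 in sunlight, did not pass (difference 5.66, limma adjusted p = 0.0658). Without the 9 libraries of doubted species the sunlight change rests on 1 mature and 1 pre-veraison library, with no replicate at either stage. That mature library held 38.5% of the V. cinerea set, against 84.6% in each mature boxed library. The part of sample identity in the differences was not tested. In that fit the differences were 5.65 for UFGT, 4.70 for MYBA1, 5.42 for LDOX, 4.30 for AM3 and 2.31 for CHI2. The difference for GST4 was 6.58 there, and it lost its call. GST4 kept its call under 6 of 13 alternatives, and lost it also with V. cinerea libraries alone and without either mature boxed replicate, either mature sunlight replicate or pre-veraison boxed replicate 2. LDOX lost it with V. cinerea libraries alone and without mature boxed replicate 1, mature sunlight replicate 2 or pre-veraison boxed replicate 2, and CHI2 without mature boxed replicate 1, mature sunlight replicate 1 or pre-veraison boxed replicate 2. The sunlight change rests on 1 pre-veraison library, which could not be left out.

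Of the 646 genes whose change was higher in the box, 572 had fallen in sunlight, where 14.6% of all genes tested fell. The median log2 difference over the 646 was -3.16 in sunlight and 0.43 in the box. These genes were chosen on the boxed minus the sunlight change, which favours negative sunlight changes, so the counts are descriptions. GIN1 was of this kind by its values, at 1161 FPKM in pre-veraison sunlight berries and 2.48 and 23.3 at maturity, against 240 and 197 in the mature box, but its difference of 4.56 did not pass (limma adjusted p = 0.241). Of the 101 genes with a lower change in the box, 79 had risen in sunlight, where 3.91% of all genes tested rose. Without the 9 libraries of doubted species 380 of 438 had fallen and 96 of 111 had risen. NAC60 had values of this kind as well, at 1.56 FPKM and then 21.9 and 23.6 in sunlight against 1.03 and 2.84 in the mature box (difference -4.14, limma adjusted p = 0.0666). HY5 read 315 FPKM in the pre-veraison sunlight library, above every boxed value, and 22.8 and 10.7 at maturity, near the boxed ones (difference 3.79, limma adjusted p = 0.216). Without the doubted libraries the differences were 3.16 for GIN1, -4.19 for NAC60 and 4.31 for HY5 (limma adjusted p = 0.516, 0.107 and 0.156).

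The change in the box and in sunlight shared its sign in most of the called genes. Of the 679 fallers 626 (92.2%) had a negative sunlight change, and of the 412 risers 293 (71.1%) had a positive one, while 59.2% of all genes tested had the same sign in both. The sunlight medians were -1.73 for the fallers and 0.72 for the risers, beside -1.83 and 2.12 in the box. Across genes the 2 changes correlated at r = 0.366, with no library in common. In the fit without the doubted libraries 744 of 829 fallers (89.7%) and 436 of 608 risers (71.7%) shared the sign, beside 60.2% of all genes tested, the sunlight medians were -1.73 and 0.89, and r was 0.385.

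**Figure D4:**
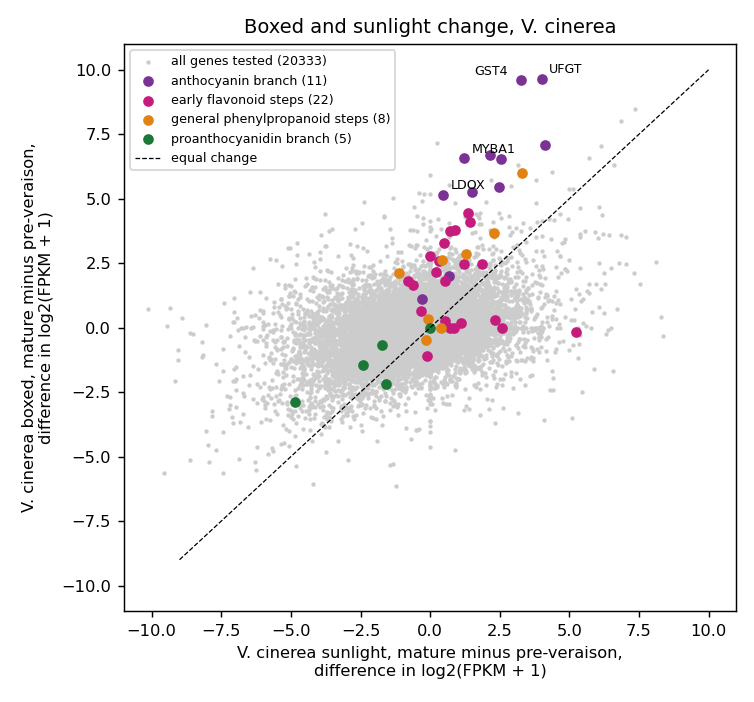
Difference in log2(FPKM + 1) from pre-veraison to maturity in sunlight (horizontal) and in the box (vertical) for all 20333 genes tested in V. cinerea (grey) and for 4 lists (coloured). The anthocyanin genes lie above the dashed line of equal change, with UFGT and GST4 at 9.66 and 9.59 on the vertical axis; the sunlight change includes the mature library of doubted species.

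Boxed V. labrusca was compared over the same stages. The change from pre-veraison to maturity in the box differed between the species for 70 genes higher and 58 lower in V. cinerea, 0.63% of those tested. Leaving out 1 library at a time gave 37 to 202. Of 11 anthocyanin genes 1 passed, against 0.344% of all genes tested that were higher. Before adjustment 7 had a limma p under 0.05, against 1911 of all 20333 genes tested. Of 8 phenylpropanoid genes 1 passed. Of 22 early flavonoid genes limma called 0, while 5 had a p under 0.05 before adjustment. Of 5 NAC factors 1 passed in the lower direction, against 0.285% of all genes tested that were lower.

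MYBA1 in boxed V. labrusca read 0.338 and 0.401 FPKM at pre-veraison and 6.98 and 9.66 at maturity, against 112 and 78.4 FPKM in mature boxed V. cinerea (difference of changes 3.81, limma adjusted p = 0.0361). The mature libraries of the species did not overlap, but this call was lost without any 1 of the 8 libraries compared. PAL VIT_13s0019g04460 read 1.67 and 3.63 FPKM and then 13.3 and 7.68 in V. labrusca (difference 4.32, limma adjusted p = 0.0117). NAC11 (VIT_14s0108g01070), a NAC factor, read 3.46 and 1.20 FPKM and then 23.3 and 11.8 in V. labrusca, while in V. cinerea it read 79.2 and 76.4 and then 48.2 and 35.7 (difference -3.38, limma adjusted p = 0.027). It was high throughout in V. cinerea and low at the start in V. labrusca. The PAL call was lost without V. cinerea mature replicate 1 or pre-veraison replicate 2 and when only boxed libraries were fitted, and that of NAC11 under 7 of 15 alternatives.

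The other anthocyanin genes did not pass as different between the species. UFGT in boxed V. labrusca was listed at 0 and 1.31 FPKM and then at 34.8 and 33.1, a difference of changes of 5.14 ± 1.54 (SE; limma adjusted p = 0.164). LDOX read 34.0 and 49.9 FPKM and then 182 and 137 (difference 3.24, limma adjusted p = 0.186). GST4 read 5.62 and 6.54 FPKM and then 457 and 781 (difference 3.19 ± 1.51, SE; limma adjusted p = 0.515). The mature V. cinerea values of 1149 and 1119 FPKM for UFGT, 2197 and 1888 for LDOX and 2220 and 2824 for GST4 lay above all of these. DFR, at 44.4 and 66.5 FPKM and then 132 and 122 in V. labrusca, gave the smallest difference in the list ( -0.11 ± 0.77, SE; limma adjusted p = 1). In V. labrusca boxes 7 of the 11 anthocyanin genes rose, against 0.787% of all genes tested that rose. The count was 2 to 5 without any 1 of the 4 boxed V. labrusca libraries. There GST4 rose by 6.41 (limma adjusted p = 0.00089), AM3 by 3.82 (adjusted p = 0.000155) and UFGT passed at an adjusted p = 0.0219, although the labels list no pigment there. Stilbene synthases differed between V. labrusca replicates, with 40 of 49 genes above 0 in mature boxed replicate 1 and 6 in replicate 2, beside 7 in each V. cinerea library.

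Of the 412 risers in boxed V. cinerea 321 (77.9%) had a positive change in boxed V. labrusca, and of the 679 fallers 548 (80.7%) had a negative one, beside 57.6% of all genes tested with the same sign. The V. labrusca medians were 0.58 and -0.57, nearer to 0 than the V. cinerea medians by which the genes were chosen. Across genes the changes of the species correlated at r = 0.332, again with no library in common.

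**Figure D5:**
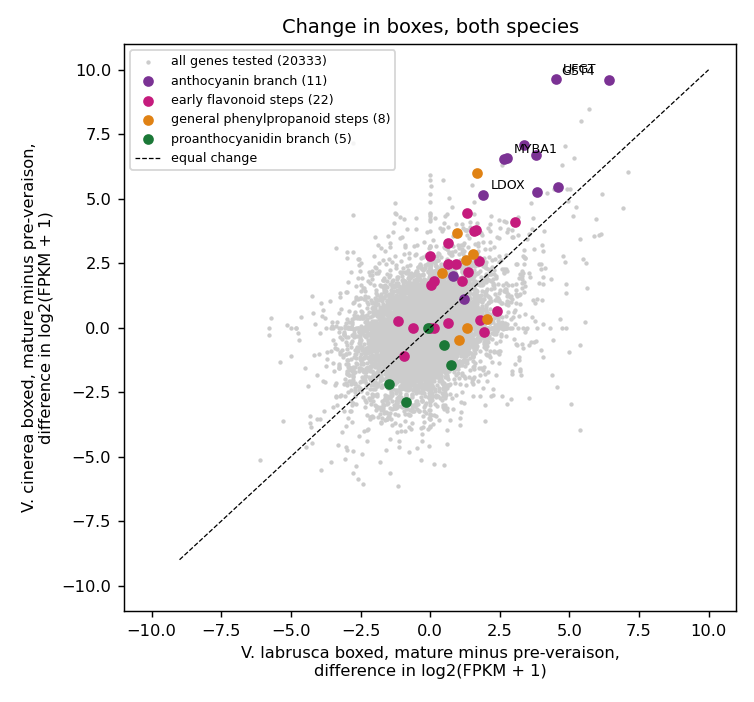
Difference in log2(FPKM + 1) from pre-veraison to maturity in boxed V. labrusca (horizontal) and boxed V. cinerea (vertical) for all 20333 genes tested (grey) and for 4 lists (coloured). UFGT, GST4, MYBA1 and LDOX lie above the dashed line of equal change, of which MYBA1 alone passed the test of the difference.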

How the data were processed

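The authors deposited 1 table of FPKM for 29971 gene models in 56 libraries. TopHat2 2.0.14 and Cufflinks 2.2.1 are named in the submitters' processing notes; no source used here gives the genome build. The low FPKM values did not fall on whole-read steps (in the boxed libraries 5% of values above 0 lay below 0.21 to 0.249 FPKM), so depth is unknown and no count test was run. FPKM is a share of the library, so a very abundant gene lowers the values of all others.

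Stage and light treatment were taken from titles and descriptions, and all 56 columns matched a sample. Genes reaching 1 FPKM in 2 or more libraries were tested on log2(FPKM + 1) with limma 3.58.1 in R 4.3.3 (empirical Bayes with trend, 1 coefficient per group, Benjamini-Hochberg adjusted p under 0.05), in 1 fit of the 46 libraries of V. labrusca and V. cinerea, with 21 residual degrees of freedom over 20333 genes. Differences between light regimes and species were interaction contrasts of that fit. The comparison of mature with pre-veraison boxed berries in that fit was run on simulated data with independent normal residuals at each gene's fitted spread. That simulation met the assumptions of the fit, so it could not test undetected genes, doubted labels or replicates that deviate together. Genes named were the whole anthocyanin list, at most 4 genes of smallest p in each other list or interaction, and 2 unnamed identifiers in each direction; other listed genes are mentioned by values that rank highest in the box and were chosen after seeing them. The members and the 12 lists (132 genes, 110 tested) were chosen with earlier results of these data known, and 11 lists that need gene descriptions were not formed. Tandem families (MYBA, CHS, F3'5'H, STS, AM) share similar sequence, so the assignment of reads within them is uncertain. The position of a library is its projection on the line between the means of both ends, over genes differing by a log2 value of at least 2. Alternatives were another pseudocount, no filter, median-ratio scaling, other sets of libraries, a replicate block and leaving out each library.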

Additional observations from a re-analysis of the deposited data

Results flagged for a closer look

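In 5 listed genes the change from pre-veraison to maturity differed between boxed and sunlight V. cinerea by the interaction test in limma. The difference, boxed minus sunlight, was 5.35 log2 units for MYBA1, 4.68 for LDOX, 6.34 for GST4, 4.55 for AM3 and 2.6 for CHI2. Boxed berries began lower and ended higher in each of the 5. Mature sunlight replicate 2 held 38.5% of the V. cinerea set, against 84.6% in each mature boxed library. The mature sunlight group also holds 1 library whose species-private genes go against its label. The values without it rest on 1 mature sunlight library, and there GST4 no longer passed.

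In 3 listed genes the boxed change differed between the species by the same kind of test. The difference, V. cinerea minus V. labrusca, was 3.81 for MYBA1, 4.32 for PAL VIT_13s0019g04460 and -3.38 for NAC11. Values for MYBA1 depend on the pseudocount, because both pre-veraison boxed V. cinerea libraries list it at 0.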

How the results depend on the processing

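Direction held for every named gene called from pre-veraison to maturity under all 12 alternatives, and 16 of these 23 genes kept their call in each. Of the 28 named genes without a call, 7 passed under at least 1 alternative (DFR, ANR, LAR2, MYB5a, SWEET10, GIN1 and MYB15), all 7 with boxed libraries alone, a fit with 2 residual degrees of freedom. Counts moved more. With a pseudocount of 0.1 the whole course gave 670 genes, the earlier step 14, the later step 138, the test between steps 11, boxed against sunlight 408 and the species comparison 72. With no filter the earlier step gave 93 and the test between steps 129. Scaling gave 15 and 14, the latter split 0 higher and 14 lower. V. cinerea libraries alone gave 670, 7, 77, 5 and 439 for the first 5 comparisons. Boxed libraries alone gave 2413, 0, 562 and 0 for the first 4, with 1662 and 2614 genes at an unadjusted p under 0.05 in limma beside the 2 zeros, and 596 for the species comparison. The test between steps, and the alternative without 3 sparse V. labrusca libraries, were chosen after seeing the data. Without these libraries boxed against sunlight gave 1127 and the species comparison 193. Leaving out 1 library gave 299 to 485 for the whole course, 81 to 123 for the later step and 18 to 38 between steps. It gave 293 to 814 against sunlight and 37 to 202 between species, and the pigment difference was 1.085 to 1.973. For the earlier step it gave 23 without either pre-veraison replicate, but only 15 or 14 of these were in the main call. Their split was 12 higher and 11 lower, and the single veraison library could not be left out. The causes were not tested. Without the 9 libraries of doubted species the 6 counts were 1437, 22, 458, 24, 549 and 172.

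The labels share replicate numbers, but same-numbered pre-veraison and mature boxed V. cinerea libraries did not deviate together (r = -0.047). Over all pairs of V. cinerea groups r was -0.108 to 0.425, and pre-veraison boxed libraries deviated with same-numbered veraison sunlight ones (0.39). Among the young-berry, pre-veraison boxed, veraison sunlight and veraison boxed-until-pre-veraison groups every r was 0.225 to 0.425. Not every pair was over 0.1, so the numbers were not taken to pair the libraries. The veraison library still boxed is a replicate 2, and across genes it correlated with pre-veraison boxed replicates 1 and 2 at r = 0.939 and 0.962. The earlier step thus sets a replicate 2 library against both replicates. With the replicate block MYB5a and SWEET10 passed (adjusted p = 0.0318 and 0.0459), and the 6 counts were 1238, 21, 284, 24, 872 and 144. Depth is unknown, and with 2 libraries a stage and 1 at veraison small changes could not be detected.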
